A study of Mus musculus with 22 samples.

Results

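The mouse genome carries 6 Dlx genes, homologues of Drosophila Distal-less, in 3 pairs whose members face each other tail to tail: Dlx1 and Dlx2 on chromosome 2, Dlx3 and Dlx4 on chromosome 11, and Dlx5 and Dlx6 on chromosome 6. The CpGs described here lie between 5000 bp upstream and 1000 bp past each of the 6 gene records (RefSeq, GRCm38) and in the span between the members of each pair, and were read 10 times or more on a strand by some library. Of the 2397 CpGs in these 93555 bp, 1114 met that condition, out of 2095436 autosomal CpGs in the series, and the 6 genes are among 46709 annotated ones. Each of the 22 libraries was made from the forebrain of 1 wild-type C57BL/6 embryo at embryonic day 10.5. Pregnant females had received saline (Ctrl, 6 embryos) or ethanol (EtOH-exposed, 16 embryos) by subcutaneous injection at the 8-cell stage. Embryos without visible defects were selected by the study. The methods give 3 control and 6 ethanol litters, but the labels tie no embryo to a litter. Embryos are therefore the units of the tests on per-embryo values. Some of them share a litter, and the p-values of those tests measure the spread between these embryos. The logistic test of tiles takes reads as its units, so its p and q values leave that spread out. Methylation gives no expression level, so the labelled tissue was not checked against markers.

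Dlx proteins are homeodomain transcription factors that bind AT-rich DNA. In the ventral forebrain Dlx1 and Dlx2 come on in progenitors of the ganglionic eminences, followed by Dlx5 and Dlx6, and all of them take part in the making and migration of GABAergic interneurons. Dlx3 and Dlx4 are known from the branchial arches, placenta and ectoderm rather than from the forebrain. Enhancers between the genes of a pair act on both, and the antisense or neighbouring transcripts Dlx1as, Dlx4os, Dlx6os1 and Dlx6os2 overlap the regions. Cytosine methylation at CpGs is usually absent from CpG-rich promoters and high over CpG-poor DNA, and genes of developmental regulators often sit in long unmethylated stretches. Reduced representation bisulfite sequencing (rRRBS) reads the CpGs near MspI cuts (CCGG): unmethylated cytosines are converted and methylated ones are not, so that the level of a CpG is the percentage of its reads that kept the cytosine.

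The sequences below show the kinds of stretch these values come from, with every CpG in capitals. They read 5′ to 3′ on the strand of the gene (on the plus strand for the span) and come from GRCm38 RefSeq. The Dlx2 promoter (chr2:71546755-71547004, minus strand) stands for the dense unmethylated CpGs, the Dlx3-Dlx4 span (chr11:95131301-95131500, plus) for the methylated stretch, and the others for intermediate or low CpGs of the remaining genes: the last coding exon of Dlx1 (chr2:71532401-71532500, plus), the far upstream stretch of Dlx2 (chr2:71551341-71551480, minus), the end of exon 1 of Dlx3 with the start of its intron (chr11:95120601-95120700, plus), the first intron of Dlx4 (chr11:95142601-95142700, minus), a coding exon of Dlx6 (chr6:6867101-6867240, plus) and a coding exon of Dlx5 with adjoining intron (chr6:6878401-6878500, minus).
Dlx1 coding exon: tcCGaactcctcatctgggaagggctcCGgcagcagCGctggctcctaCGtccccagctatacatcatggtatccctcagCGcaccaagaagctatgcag
Dlx2 promoter: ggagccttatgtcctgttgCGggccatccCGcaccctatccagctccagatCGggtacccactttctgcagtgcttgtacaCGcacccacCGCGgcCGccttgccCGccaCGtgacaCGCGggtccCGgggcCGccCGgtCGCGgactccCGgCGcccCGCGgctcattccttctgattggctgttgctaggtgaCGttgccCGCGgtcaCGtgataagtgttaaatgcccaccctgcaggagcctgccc
Dlx2 upstream: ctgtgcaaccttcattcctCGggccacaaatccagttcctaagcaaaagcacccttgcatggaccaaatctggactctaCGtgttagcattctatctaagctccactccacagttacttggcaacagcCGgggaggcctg
Dlx3 exon 1 end: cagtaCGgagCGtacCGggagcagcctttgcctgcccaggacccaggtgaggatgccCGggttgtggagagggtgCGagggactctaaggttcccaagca
Dlx3-Dlx4 span: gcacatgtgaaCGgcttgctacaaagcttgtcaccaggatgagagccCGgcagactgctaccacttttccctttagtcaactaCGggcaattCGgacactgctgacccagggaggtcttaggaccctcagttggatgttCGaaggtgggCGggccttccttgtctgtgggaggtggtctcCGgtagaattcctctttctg
Dlx4 intron: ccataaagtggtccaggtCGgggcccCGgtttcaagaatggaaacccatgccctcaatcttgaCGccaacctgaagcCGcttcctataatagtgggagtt
Dlx6 coding exon: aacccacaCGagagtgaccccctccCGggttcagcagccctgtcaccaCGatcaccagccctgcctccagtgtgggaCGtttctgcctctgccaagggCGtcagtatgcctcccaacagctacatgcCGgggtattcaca
Dlx5 coding exon: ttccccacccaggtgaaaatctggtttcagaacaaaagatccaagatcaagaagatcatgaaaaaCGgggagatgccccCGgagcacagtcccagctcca

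The 250 bases before the Dlx2 start held 24 CpGs and 3 CCGG sites. Of the 27025 promoters of this length in RefSeq, 11.7% held as many CpGs and 46.8% held a CCGG, and the median was 6.00 CpGs. Of the 24 CpGs, 20 had a value in a control embryo, and CpGs 13 to 16 from the 5′ end had none. Control means ran from 0.167% to 2.34% and those of the EtOH-exposed embryos from 0.546% to 1.96%. The Dlx3-Dlx4 stretch held 7 CpGs in 200 bases. Its first CpG had no value, and the other 6 had control means of 92.0%, 84.3%, 78.3%, 88.4%, 93.2% and 90.7% from 5′ to 3′. The 3 CpGs upstream of Dlx2 stood between these extremes, at 17.2% ± 7.11, 6.92% ± 2.33 and 12.2% ± 4.34 in controls (SD, n = 5).

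In control forebrain the Dlx loci were unmethylated over almost all CpGs measured, apart from the flank and the middle of the Dlx3-Dlx4 locus. Of the 926 Dlx CpGs with a value in at least 1 control embryo, 845 (91.3%) had a mean level under 5%, 61 lay from 5% to 20%, 2 from 20% to 50% and 18 at 50% or more. Over all 1911095 autosomal CpGs with a control value, 45.6% were under 5% and 47.5% at 50% or more. The share under 5% was 94.7% at Dlx1/Dlx2, 87.3% at Dlx3/Dlx4 and 90.5% at Dlx5/Dlx6. All 18 CpGs at 50% or more belonged to Dlx3/Dlx4, 5 of them upstream of Dlx3 and 13 in the span.

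**Figure D1:**
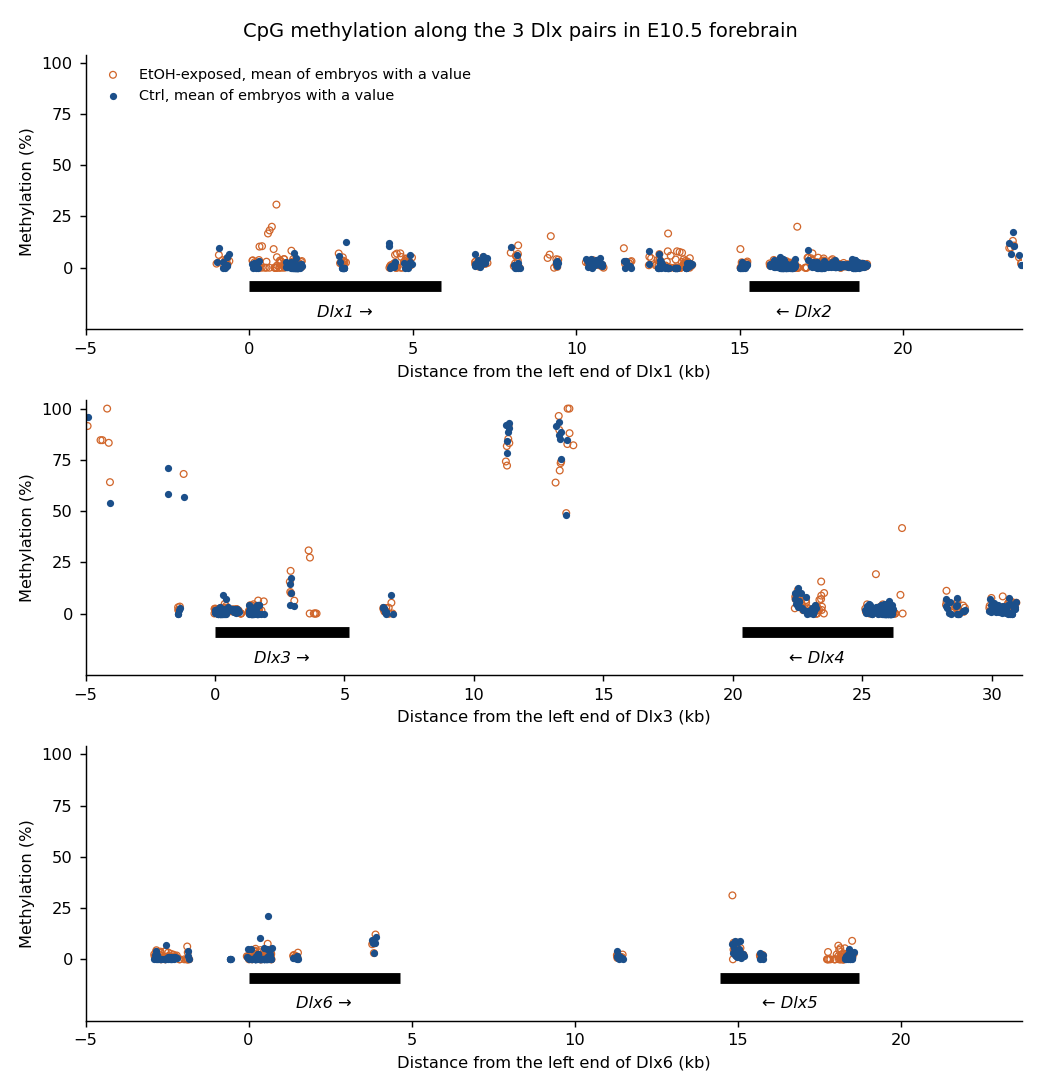
Mean methylation (percent) of each CpG against the distance in kb from the left end of the left gene, for the 3 pairs. Filled points are control means and open points EtOH-exposed means over the embryos with a value. Black bars are the gene records, and arrows give the direction of transcription. Points at 50% or more in controls occur only at Dlx3/Dlx4, upstream of Dlx3 and between the genes.

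At Dlx1/Dlx2, the pair that acts earliest in ventral forebrain progenitors, no control CpG reached 20%. The 102 CpGs of Dlx1 had a median of 0.855% and a highest level of 12.5%, and the 219 CpGs of Dlx2 a median of 0.945% and a highest level of 17.2%. The 92 CpGs of the span between them, which holds shared enhancers of the pair, had a median of 1.29% and a highest level of 10%. Coverage was densest at Dlx2, where 229 of 325 CpGs (70.5%) were measured in a library, against 151 of 350 (43.1%) at Dlx1. The window of Dlx2 had 3.48 CpGs per 100 bp, the highest of the 9 regions, with an observed-to-expected CpG ratio of 0.52.

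At Dlx5/Dlx6 the CpGs of Dlx6 had a median of 0.230% (n = 130 CpGs) and those of Dlx5 one of 1.32% (n = 50 CpGs). Many of the Dlx6 values came from 1 control, and 33 of its CpGs had at least 5 embryos per condition. A single CpG passed 20%, at position 6863921 in the first intron of Dlx6, within the antisense gene Dlx6os2. It had 21.1% ± 18.4 in 3 controls and 7.59% ± 10.6 in 12 EtOH-exposed embryos, so its level was spread within each group. The span between Dlx6 and Dlx5 was hardly read: 9 of its 142 CpGs had a value, all under 5% in controls. It contains 6 CCGG sites, against 39 in the Dlx1-Dlx2 span.

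Dlx3/Dlx4 was the pair with both states. The promoter of Dlx3, from 1000 bp before to 100 bp past the start, had 13 CpGs with control means up to 1.82%. Its other 9 upstream CpGs, read in 1 to 3 controls, split into 5 at 53.9% to 95.9% and 4, between positions 95118692 and 95118760, at 0% to 2.83%. In the body of Dlx3, 4 CpGs of the second intron between positions 95123006 and 95123055 had control means of 14.4%, 4.0%, 17.3% and 10%, each from 2 controls, and of 15.5%, 10.5%, 20.8% and 9.89% in 8 EtOH-exposed embryos. Dlx4 was low along its length, with a median of 1.06% and a highest level of 12.6% over 172 CpGs. The span between them was the CpG-poorest region, with 1.52 CpGs per 100 bp and an observed-to-expected ratio of 0.22. Its 7 CpGs nearest Dlx3, each from at least 4 controls, had means up to 3.27%, while 13 of its 14 CpGs from position 95131348 on were at 50% or more. The remaining one, at position 95133679, had 48.0% in 1 control.

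Grouped by feature over the 6 genes, promoters had the lowest control median, 0.575% over 135 CpGs, with 97.0% of them under 5%. Coding exons had a median of 0.788% (230 CpGs), untranslated exons 0.987% (113 CpGs) and introns 1.11% (176 CpGs). The 129 upstream CpGs beyond the promoters had a median of 1.34%, and 83.7% of them were under 5%. The promoters read were those of Dlx1 (30 CpGs), Dlx2 (29), Dlx3 (13), Dlx4 (52) and Dlx6 (11), while no CpG of the Dlx5 promoter had a control value. Their control medians were 0.397%, 1.05%, 0.755%, 0% and 0%. Promoters were not the lowest feature in each gene: coding exons of Dlx1 and Dlx2 had 0% and 0.795%, and untranslated exons of Dlx3 0.599%. Of the 52 promoter CpGs of Dlx4, 2 had at least 5 embryos per condition.

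Between controls and EtOH-exposed embryos, the question of the study was whether an exposure at the 8-cell stage left differences in forebrain methylation at mid-gestation. In the Dlx regions, 66 tiles of 100 bp had at least 2 CpGs with 10 reads in at least 5 embryos per condition, and none of them was called at q under 0.01 with a difference of at least 10 percentage points. Over all 114430 autosomal tiles the same rule called 1.14%, and 1240 of those 1299 calls were lower in the EtOH-exposed embryos. The control level limits what could be seen: 65 of the 66 Dlx tiles were under 10% in controls, where a decrease of 10 points is not possible. Of the 60562 tiles under 10% in controls anywhere, 0.0066% were called as higher. The 66 tiles had control levels from 0.578% to 10.1% (median 1.43%), and 93.9% of them were under 5%, against 51.4% of all tiles.

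**Figure D2:**
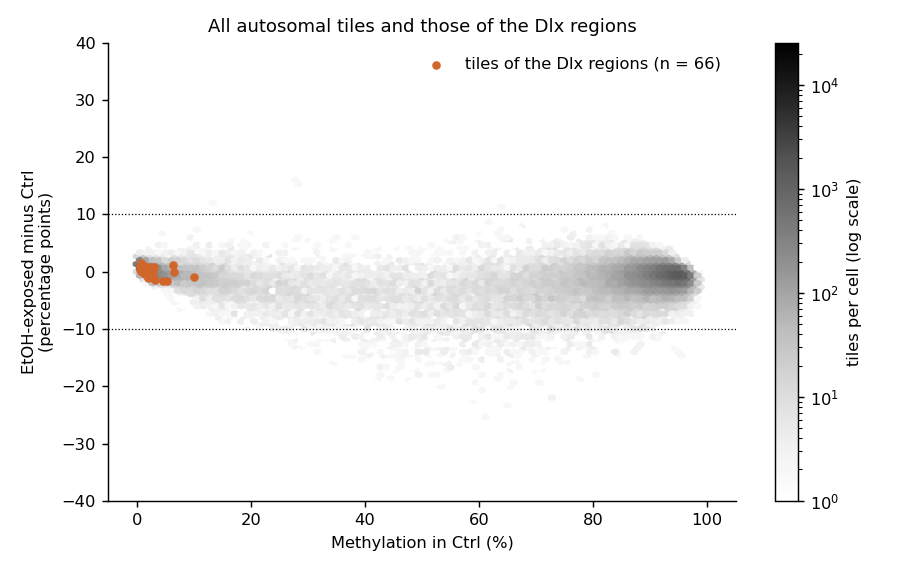
Difference between EtOH-exposed and control embryos (percentage points) against the control level (percent) for every autosomal tile, in grey cells shaded by the number of tiles on a log scale. The 66 Dlx tiles, in orange, lie at control levels of up to 10.1% and differ by -1.70 to 1.48 points. Dotted lines mark 10 points in either direction.

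The differences at the Dlx tiles were small. They ranged from -1.70 to 1.48 percentage points with a median of 0.111, beside a median of 0.117 for all tiles under 10% in controls and -0.127 for all tiles. In 38 tiles the EtOH-exposed level was higher and in 28 lower. By q alone, without the minimum size, 6 Dlx tiles were higher (9.09%, against 8.84% of all tiles) and 4 lower (6.06%, against 12.9% of all tiles), with differences of 0.396 to 1.48 points in size. That test takes reads as independent. With the spread between embryos in the model (an F test with overdispersion), 2 of the 66 tiles had an unadjusted p under 0.05 (3.03%, against 5.77% of all tiles) and the smallest adjusted value was 0.858. That F test called 0 of the 114430 tiles, with 6598 at an unadjusted p under 0.05, and limma on log ratios also called 0, with 5093.

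The tile with the smallest p in each region is described next by its values per embryo. For Dlx6 it was the first-intron tile chr6:6863901-6864000, which had 2.05% in controls and 1.15% in EtOH-exposed embryos over all reads (q = 2.00e-05 by the logistic test, p = 0.110 by the F test). Control embryos ran from 0% over a median of 1.45% to 2.69%, and EtOH-exposed embryos from 0% over 0.643% to 3.08%. The groups overlapped along their whole range, and 2 EtOH-exposed embryos stood above every control (exact permutation p = 0.488 over 74613 splits, two-sided). Without Ctrl 2, which had the highest control value, the difference over all reads was -0.184 points in place of -0.903.

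For Dlx2, a regulator of interneuron fate, it was the first-intron tile chr2:71545801-71545900, at 1.57% and 1.17% (q = 7.11e-04). Controls ran from 0.732% over 0.787% to 2.38% and EtOH-exposed embryos from 0.307% over 1.11% to 2.94%, so that the exposed embryos lay on both sides of the controls, 3 above and 6 below. The exact permutation test gave p = 0.977, and without Ctrl 2 the difference was 0.0732 points in place of -0.396. For Dlx3, which acts in ectoderm and placenta, it was the tile at the end of exon 1 printed above, at 2.92% and 1.83% (q = 5.37e-04). Controls ran from 0.923% over 1.93% to 6.65% and EtOH-exposed embryos from 0.513% over 1.62% to 4.51% (exact permutation p = 0.216). The 6.65% came from 1 control, Ctrl 2, and without it the difference was -0.0568 points in place of -1.09.

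For Dlx4 it was the first-intron tile chr11:95143001-95143100, at 0.776% and 1.43% (q = 3.54e-04). The 5 controls with a value had 0%, 0.808%, 0.812%, 0.953% and 0%, and the 16 EtOH-exposed embryos ran from 0.196% over 0.869% to 2.51%. Here 7 EtOH-exposed embryos lay above every control and none below, and the exact permutation test gave p = 0.0810. Without EtOH-exposed 4, 5 and 6, which had the highest values, the difference was -0.0135 points.

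For Dlx1 it was the tile chr2:71532501-71532600 at the start of the 3′ untranslated region, which Dlx1as overlaps, at 0.980% and 1.74% (q = 0.0121). The 5 controls had 3.41%, 0.847%, 0.653%, 1.02% and 1.33%, and EtOH-exposed embryos ran from 0.451% over 1.26% to 3.40%, within the range of the controls at the top and with 3 embryos below them. For Dlx5 it was the second-intron tile chr6:6879001-6879100, at 0.926% and 1.40% (q = 0.131). Its 5 controls had 0.438%, 1.23%, 1.38%, 1.28% and 0.601%, and EtOH-exposed embryos ran from 0% over 0.767% to 3.29%, with 5 above and 4 below all controls. Its difference of 0.477 points was 0.230 without EtOH-exposed 6 and 0.236 without EtOH-exposed 4. In neither tile did the means differ beyond the spread of embryos (exact permutation p = 0.983 and p = 0.820).

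Of the spans, Dlx1-Dlx2 had its smallest p in the tile chr2:71541601-71541700, at 1.95% and 0.809% (q = 0.00131). The 5 controls had 2.64%, 1.91%, 1.89%, 1.35% and 0.592%, and 9 of the 16 EtOH-exposed embryos were below all of them, while 1 was above at 4.52% (exact permutation p = 0.323). The Dlx3-Dlx4 span had its own in the low tile chr11:95126601-95126700 next to Dlx3, at 2.14% and 1.52% (q = 0.0931, exact permutation p = 0.150), with a difference of -0.128 points without Ctrl 2 in place of -0.617. The Dlx5-Dlx6 span had no tile.

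Several of these tile differences moved by more than 1.5 times with the weighting or the libraries used. With every embryo weighted alike, the Dlx1 tile went from 0.762 to 0.0104 points, the Dlx1-Dlx2 span tile from -1.14 to -0.617, the Dlx2 tile from -0.396 to -0.0124, the Dlx6 tile from -0.903 to -0.346 and the Dlx5 tile from 0.477 to 0.120. With the coverage ratio of the library as a covariate, the Dlx1 tile fell to 0.0296 and the Dlx4 and Dlx5 tiles changed sign, while the Dlx2, Dlx3 and Dlx3-Dlx4 span tiles grew to -0.798, -1.89 and -1.17 points. Without EtOH-exposed 4, 5 and 6, the Dlx1 tile had 0.140 points and the Dlx2 tile -0.698.

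The logistic p that picked these tiles treats reads as independent. By the exact permutation test over embryos, unadjusted, 2 other tiles of the 66 were under 0.05 (3.03%, against 4.48% of all tiles), and they are named here after their values were seen. In the Dlx6 promoter tile chr6:6863301-6863400 controls ran from 0.857% over 2.22% to 7.41% and EtOH-exposed embryos from 0% over 0.642% to 5.26%. None of the EtOH-exposed embryos was above all controls and 10 of 16 were below them (embryo means 2.85% and 1.12%, exact permutation p = 0.0400, logistic q = 0.335). Without Ctrl 4, whose 7.41% came from 2 of 27 reads, the difference of embryo means was -0.819 in place of -1.73 points (exact permutation p = 0.235). Omitting any other single embryo gave -2.13 to -1.66 points. The exact permutation p then ran from 0.00439 (without EtOH-exposed 4) to 0.0522. In the Dlx1 coding tile printed above controls ran from 0% over 1.54% to 5.88% and EtOH-exposed embryos from 0% over 0.624% to 3.10% (embryo means 2.27% and 0.967%, exact permutation p = 0.0494). Without Ctrl 2, whose 5.88% came from 2 of 34 reads, the difference was -0.582 in place of -1.30 points (exact permutation p = 0.309). Other single omissions gave -1.76 (without Ctrl 6, exact permutation p = 0.0162) to -0.997 points (without Ctrl 1, exact permutation p = 0.154). Its position 71532403 had a value in 2 controls (11.9% ± 4.99) and in 1 EtOH-exposed embryo (0%). Positions 71532437, 71532449 and 71532481 (n = 5 and 16) had control means of 0.997%, 0.521% and 0.882% and exposed means of 0.933%, 1.28% and 0.786%. The embryo means thus compare partly unlike CpGs. Over all reads the Dlx1 tile had 1.39% and 1.45%, the opposite direction.

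The per-embryo level of a gene, the mean over the CpGs of its window that all 22 embryos share, could be formed for 4 genes. Dlx2 (39 CpGs) had 1.21% ± 0.560 in controls (SD, n = 6) and 1.2% ± 0.885 in EtOH-exposed embryos (SD, n = 16). Controls ran from 0.775% over a median of 0.950% to 2.20% and EtOH-exposed embryos from 0.276% over 1.08% to 2.96%. The difference was -0.0161 points (SE 0.318, 95% interval from the permutation test -0.815 to 0.799, exact p = 0.967). Exposed embryos were spread around the controls, with 3 above and 6 below, and without Ctrl 1, the highest control, the difference was 0.182.

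Dlx3 (29 CpGs) had 1.59% ± 0.665 in controls and 1.45% ± 0.920 in EtOH-exposed embryos (SD, n = 6 and 16). Its controls ran from 1.02% over 1.31% to 2.66% and its EtOH-exposed embryos from 0.507% over 1.24% to 3.2%, again with 3 above and 6 below all controls. The difference of -0.141 points had an interval of -0.993 to 0.721 (exact permutation p = 0.738), and it was 0.0731 without Ctrl 2, the highest control.

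Dlx4 (14 CpGs) had 2.89% ± 0.406 and 3.11% ± 0.887 (SD, n = 6 and 16). Controls ran from 2.12% over 2.99% to 3.23% and EtOH-exposed embryos from 1.55% over 3.24% to 4.48%. Here 8 of the 16 EtOH-exposed embryos were above every control and 2 below. The difference of 0.217 points had an interval of -0.578 to 1.01 (exact permutation p = 0.573), and it was 0.0628 without Ctrl 3, the lowest control. Dlx6, a gene needed for jaw and limb as well as forebrain, had 8 shared CpGs, 4 upstream at 0.370% to 1.31% in controls and 4 in the coding exon printed above at 3.14% to 11.1%. Its level was the highest, 4.07% ± 1.30 in controls and 4.58% ± 1.12 in EtOH-exposed embryos. Controls ran from 1.92% over 4.27% to 5.52% and EtOH-exposed embryos from 2.30% over 4.33% to 6.55%, with 4 above all controls and none below. The difference of 0.509 points had an interval of -0.661 to 1.68 (exact permutation p = 0.375), and it was 0.0802 without Ctrl 6, the control with the lowest level. Under the alternatives other than limma and single omissions, the Dlx6 difference ran from 0.0725 to 0.556 points and that of Dlx4 from -0.0268 to 0.406.

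Dlx1 and Dlx5 had no CpG shared by all 22 embryos. Their levels were therefore taken over the CpGs with at least 5 embryos per condition, 28 and 11 in number, each embryo over those it had (6 to 28 and 5 to 11). Dlx1 had 1.76% ± 0.982 in controls and 1.37% ± 0.787 in EtOH-exposed embryos, a difference of -0.391 points (interval -1.23 to 0.443, exact permutation p = 0.343). Controls ran from 0.615% over 1.51% to 3.26%, and the EtOH-exposed embryos, from 0.433% over 1.30% to 3.07%, had none above and 3 below them. Without Ctrl 2, the control with the highest level, the difference was -0.0920. Ctrl 2 had no value in the low tiles chr2:71529201-71529300, chr2:71529301-71529400 and chr2:71532501-71532600 (0.605% to 0.980% in controls). Ctrl 6, the control with the lowest level, had none in the tile chr2:71527101-71527200 (5.33% in controls). Dlx5 had 2.39% ± 0.833 and 2.01% ± 1.19, a difference of -0.375 points (interval -1.49 to 0.743, exact permutation p = 0.487). Its controls ran from 1.03% over 2.41% to 3.55% and its EtOH-exposed embryos from 0.288% over 2.06% to 3.95%. Without Ctrl 6, the highest control, the difference was -0.144. Ctrl 6 had no value in the tile chr6:6879001-6879100 (0.926% in controls). Ctrl 2, the lowest control, had none in the tile chr6:6878401-6878500 (2.98% in controls). In both genes the levels therefore mix embryos read at different CpGs, and the part of this in the differences was not tested.

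**Figure D3:**
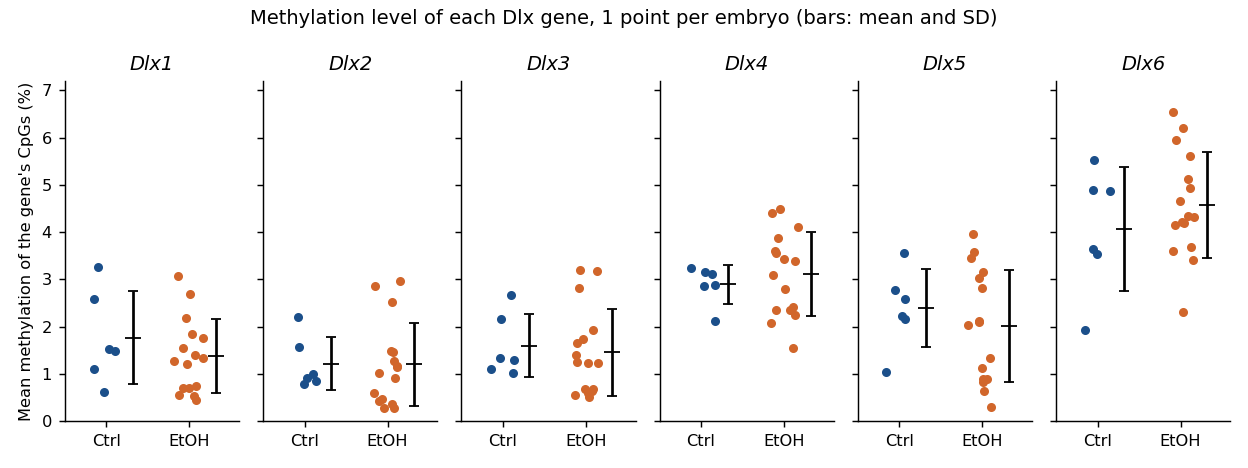
Methylation level (percent) of each Dlx gene in each embryo, 6 controls in blue and 16 EtOH-exposed embryos in orange, with the mean and SD of each group. In every gene the groups overlap, and the 22 values stay under 7%.

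The levels rest on different CpGs and features in each gene, and for Dlx1 and Dlx5 also in each embryo, so that their order is a description. By the control mean it ran Dlx2, Dlx3, Dlx1, Dlx5, Dlx4 and Dlx6. Within embryos, Dlx3 was above Dlx2 in 5 of 6 controls and 19 of all 22 embryos, by 0.379 ± 0.390 points in controls (SD). Dlx1 was above Dlx3 in 5 of 6 controls and 13 of 22 embryos (0.171 ± 0.477 points in controls, but -0.0138 ± 0.360 over all 22). Dlx5 was above Dlx1 in 4 of 6 controls and 17 of 22 embryos (0.626 ± 1.76). Dlx4 was above Dlx5 in 4 of 6 controls and 19 of 22 embryos (0.503 ± 1.04). Dlx6 was above Dlx4 in 5 of 6 controls and 18 of 22 embryos (1.18 ± 1.17). In the controls every step but the last was smaller than its SD, and the last was about as large as its SD. Over all genes with at least 3 shared CpGs (n = 13020), the median control level was 1.91%, and 36.6% of them were below Dlx2 and 55.3% below Dlx6.

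At such low levels the libraries themselves differ. Each library's level at 18532 tiles elsewhere whose median over embryos is under 1% ran from 0.670% to 1.52% in controls and from 0.257% to 2.53% in EtOH-exposed embryos, with means of 0.954% and 1.01% (exact permutation p = 0.866). The coverage ratio of a library is the log2 of reads at methylated over unmethylated tiles. It ran from -2.04 to -0.859 in controls and from -3.34 to -0.886 in EtOH-exposed embryos. Its means were -1.19 and -1.92 (exact permutation p = 0.0683), and EtOH-exposed 4, 5 and 6 had -3.19, -3.15 and -3.34. The Dlx levels moved with the level at unmethylated tiles. In EtOH-exposed 4, 5 and 6, the 3 libraries at 2.40% to 2.53%, Dlx2 had 2.51% to 2.96% and Dlx3 had 2.81% to 3.2%. In the 6 EtOH-exposed libraries at 0.257% to 0.311%, Dlx2 had 0.276% to 0.599% and Dlx3 had 0.507% to 0.682%. The 10 libraries at 0.670% to 1.10%, 4 of them controls, lay between these for both genes, at 0.775% to 1.46% and 1.02% to 1.92%. Dlx4 covered 3.6% to 4.48% in the highest libraries and 1.55% to 3.09% in the lowest. Dlx6 did not separate them, with 3.69% to 5.12% in the highest and 2.30% to 6.21% in the lowest.

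**Figure D4:**
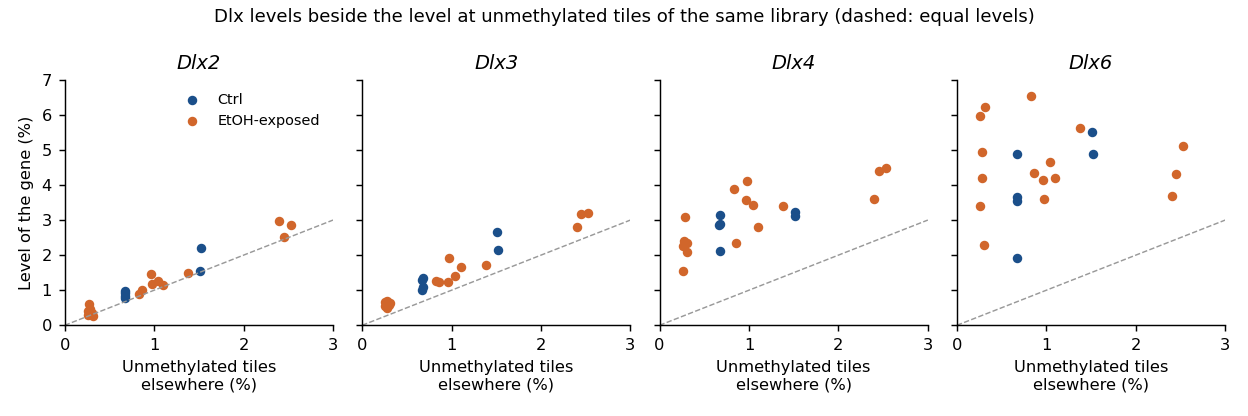
Level of 4 Dlx genes (percent) against the level of the same library at tiles elsewhere that are unmethylated (percent), 1 point per embryo, controls in blue and EtOH-exposed in orange, with a dashed line at equal levels. Dlx2 and Dlx3 rise along the line, from 0.276% to 2.96% and from 0.507% to 3.2%, while Dlx6 is spread from 1.92% to 6.55%.

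Without EtOH-exposed 4, 5 and 6 the differences were -0.380 points for Dlx2 (exact permutation p = 0.132), -0.513 for Dlx3 (p = 0.0752), -0.686 for Dlx1 (p = 0.0504), -0.0268 for Dlx4 (p = 0.938), -0.699 for Dlx5 (p = 0.174) and 0.556 for Dlx6 (p = 0.377), and again no Dlx tile was called, beside 0.39% of all tiles. These 3 libraries were picked for their high level at unmethylated tiles and left out of the EtOH-exposed group only. The high controls Ctrl 1 and Ctrl 2 (1.52% and 1.51%) and the 6 EtOH-exposed libraries at 0.257% to 0.311% stayed. For genes that move with this level, leaving out the highest exposed libraries lowers the exposed mean, so the p-values are descriptive. The share of each difference that came from this choice was not tested. With the library's own level at unmethylated tiles subtracted, Dlx1 was lower in EtOH-exposed embryos by -0.451 points (exact permutation p = 0.0120), over CpGs that differ between embryos. The other genes then had differences of -0.0756 (Dlx2), -0.2 (Dlx3), 0.157 (Dlx4), -0.435 (Dlx5) and 0.450 points (Dlx6), with exact permutation p of 0.413, 0.0661, 0.550, 0.294 and 0.485.

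The genes most like a Dlx gene were sought by the correlation of levels over the 22 libraries, which also carry each library's own level. For Dlx2 they were Slc44a1, Mef2a and Zbtb25, each with Pearson's r of 0.99 and control levels of 0.949% to 1.05%. For Dlx3 they were Msx1, Tspan4 and Tasor2, with r of 0.98 and control levels of 1.01% to 1.42%. For Dlx6 they were Gm8497 (r of 0.75, 3 CpGs, control level 94.3%), Nfatc4 (0.75) and Smco4 (0.72), the latter at 12.8% and 12.1% in controls. Dlx4, whose control SD of 0.406 was under the 0.5 points required, was not searched. All genes named here were picked as the highest of those searched, and how high r reaches by chance over 22 libraries was not tested.

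The CpGs that were neither low nor high allowed differences to show in both directions. Among the 303 Dlx CpGs with at least 5 embryos per condition, the largest increase was 3.37 points and the largest decrease -5.13. The coding CpGs of Dlx6 printed above were intermediate in both groups: position 6867228 had 11.1% ± 6.23 in controls (n = 6) and 12.1% ± 4.90 in EtOH-exposed embryos (n = 16), and position 6867149 had 7.83% ± 3.26 and 8.21% ± 2.36. Position 6867178, 29 bases further, was lower in both groups, at 3.14% ± 0.821 and 3.04% ± 1.27. Upstream of Dlx2, position 71551400 had 6.92% ± 2.33 in 5 controls and 9.80% ± 2.97 in 15 EtOH-exposed embryos, while its neighbours at 71551460 and 71551351 had 17.2% and 13.1%, and 12.2% and 9.61%. In the first intron of Dlx4, position 95142673 had 5.41% ± 2.28 and 7.41% ± 3.63. In the coding exon of Dlx5, position 6878420 had 8.76% ± 3.15 in 5 controls and 5.50% ± 3.42 in 15 EtOH-exposed embryos. Upstream of Dlx1, position 71527190 had 9.67% ± 5.14 in 5 controls and 6.20% ± 4.26 in 15 EtOH-exposed embryos. None of these differences exceeded the larger of the 2 SDs. The SDs are the spread of single embryos and not the error of a difference of means, and the differences were not tested one by one.

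The methylated stretch between Dlx3 and Dlx4 was read in too few embryos for the main analysis and was tested with at least 3 embryos per condition. In the tile chr11:95131301-95131400 the 4 controls with a value had 87.4%, 86.7%, 84.9% and 76.8%. The 7 EtOH-exposed embryos had 84.7%, 80%, 60.2%, 65.0%, 89.6%, 74.3% and 81.9%. Of these, 4 were above the lowest control and 3 below all controls, and over reads the groups stood at 83.5% and 78.8% (q = 0.0654 by the logistic test). The embryo means of 83.9% ± 4.86 and 76.5% ± 10.7 gave an exact permutation p of 0.236 over 330 splits. The lowest value, 60.2%, was that of EtOH-exposed 6, and the difference of means rests in part on this embryo. In the next tile, chr11:95131401-95131500, controls had 89.4%, 94.0%, 91.7% and 87.5%, with a mean of 90.6% ± 2.80. The EtOH-exposed embryos had 89.3%, 83.2%, 85.5%, 90%, 92.3%, 83.5% and 90.6%, with a mean of 87.8% ± 3.65 (q = 0.320, exact permutation p = 0.206). Reads per embryo and tile were 20 to 260, few beside the 580 reads that were the median over the 66 Dlx tiles. With this minimum 105 Dlx tiles were tested and none was called, beside 2.57% of all tiles.

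**Figure D5:**
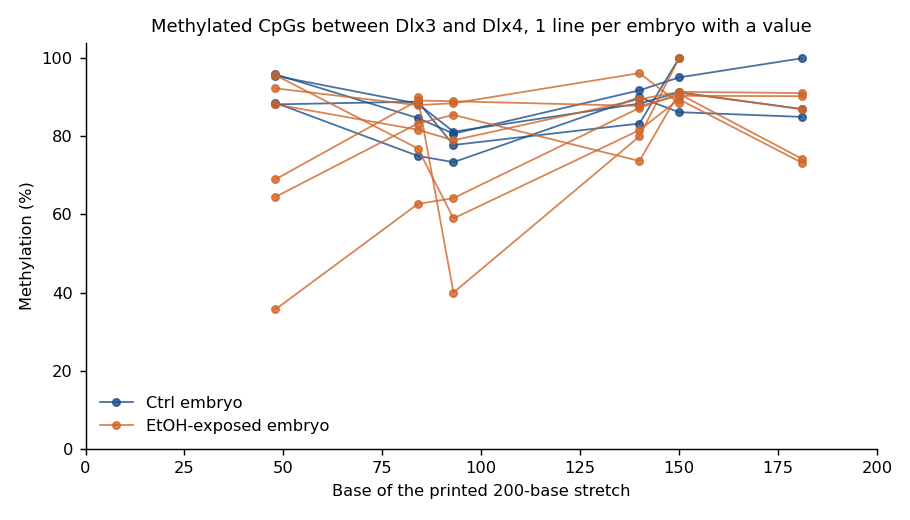
Methylation (percent) of the 6 CpGs read in the printed stretch between Dlx3 and Dlx4, against their base in it, with 1 line per embryo, 4 controls in blue and 7 EtOH-exposed in orange. Control lines stay at 73.4% to 100%, and some EtOH-exposed lines reach 35.7% or 40% at single CpGs, on 14 and 10 reads.

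The lowest values in that stretch were 35.7% at position 95131348 in EtOH-exposed 6 and 40% at position 95131393 in EtOH-exposed 7. They rest on 5 of 14 and 4 of 10 reads, with 95% Wilson intervals of 16.3% to 61.2% and 16.8% to 68.7%. At position 95131348 the 4 controls had 92.0% ± 4.21 and the 6 EtOH-exposed embryos 74.2% ± 22.7, while at 95131450 they had 93.2% ± 5.82 and 91.7% ± 3.81 (n = 4 and 7). The low values at 95131348 were those of EtOH-exposed 4, 5 and 6, at 69.0%, 64.5% and 35.7%. EtOH-exposed 10, 11 and 16 had 92.3%, 95.7% and 88.2% there. Position 95131348 is the CpG of a CCGG site, where MspI cuts. At position 95131384, outside CCGG sites, EtOH-exposed 4, 5 and 6 had 89.2%, 83.3% and 62.7%, beside a control mean of 84.3% ± 6.44. Further on, 8 CpGs from position 95133267 to 95133721 had a value in 1 control each. Position 95133679 had 48.0%, and the other 7 had 75.4% to 93.4% in Ctrl 6 on 26 to 61 reads (95% Wilson intervals within 63.3% to 97.4%, for counting error only). Upstream of Dlx3, position 95115198 had 95.9% ± 2.47 in 3 controls and 91.5% ± 7.51 in 6 EtOH-exposed embryos.

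Genes known beside Dlx from the forebrain, its interneurons or the branchial arches had median tile levels of 0.781% to 2.0% in controls. Of a list of 21 (among them Gsx2, Nkx2-1 and Lhx6, which specify progenitors and interneurons, Gad1, Gad2 and Slc32a1, which make and load GABA, and the arch genes Msx1, Msx2 and Hand2), all 21 had tiles, 224 in all, and none was called in either direction, beside 1.14% of all tiles. Of the 224 tiles, 214 were under 10% in controls, where a decrease of 10 points is not possible and 0.0066% of all such tiles were called as higher, so that the count of 0 says little about these genes. In 15 of the 21 genes every tile was under 5% in controls. The highest tiles of Zeb2 (93.5%), Sox6 (92.9%), Lhx8 (83.7%), Nrp2 (77.0%) and Gad2 (59.7%) were at 50% or more.

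Depth differed between embryos. Controls had 68126469 to 132488556 calls and EtOH-exposed embryos 89179413 to 216223892. In the Dlx regions, 338 to 653 CpGs per control and 373 to 1029 per EtOH-exposed embryo had 10 reads on a strand, with medians of 41.0 to 118 and 55.0 to 161 reads per CpG. The 3 libraries with the most Dlx CpGs were EtOH-exposed 5 (1029), 6 (913) and 4 (811), the same that had the highest level at unmethylated tiles, and 188 Dlx CpGs had values in EtOH-exposed embryos only. The part of these library properties in the differences above was not tested.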

How the data were processed

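Reduced representation bisulfite libraries of 22 forebrains, 6 Ctrl and 16 EtOH-exposed, were analysed. Per the submitters' notes and the study's methods, Trim Galore 0.3.3 removed adapters and BSMAP 2.90 placed the reads on mm10. The deposited counts are the authors' numbers of reads covering each CpG cytosine, by strand and without normalization, and the deposited percent values are the shares of methylated and unmethylated reads. Methylated reads were taken as coverage times percent, rounded to whole reads. PCR copies were not told apart, so intervals cover counting error only, and rounding or incomplete conversion matters most at low levels.

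A strand of a CpG counted from 10 reads on, and both strands were summed. Tiles of 100 bp on chromosomes 1 to 19 with at least 2 CpGs and 5 samples per condition were tested by a logistic likelihood ratio, with Benjamini-Hochberg q under 0.01 over all tiles and 10 points or more between the pooled levels. Per-embryo values were compared by exact two-sided permutation tests. An F test with overdispersion, limma 3.58.1 (R 4.3.3, log2 ratio with 0.5 added to both read numbers), other coverage and sample minimums, CpGs outside CCGG sites, a library covariate, a fit blocked on replicate number and the omission of single samples were alternatives. For Dlx1 and Dlx5, which had no CpG in all samples, the CpG rule was chosen after the coverage was seen, as were the checks of libraries. In each region the tile with the smallest p was named where none was called. Members and lists were chosen with earlier results of these data known. Some genes of the list of related genes are not reported here and stand in none of its counts. Tests were also run on simulated tiles with the read numbers of these libraries (Python 3.11.15, scipy 1.17.1). Labels give no sex or litter per embryo.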

Additional observations from a re-analysis of the deposited data

Results flagged for a closer look

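In 16 sets of control values, the lowest or highest embryo was set against the other controls by the gap to its nearest neighbour as a share of the whole range (Dixon's test, 95% level, which chance passes in about 1 in 20 sets). It stood apart in 3 of them. For the level of Dlx4, Ctrl 3 was low at 2.12%, with the next control at 2.86%. In the Dlx1 tile chr2:71532501-71532600, Ctrl 1 was high at 3.41%, with the next at 1.33%. In the Dlx3 tile chr11:95120601-95120700, Ctrl 2 was high at 6.65%, with the next at 2.77%. Ctrl 1 and Ctrl 2 were also the controls with the highest level at unmethylated tiles elsewhere, 1.52% and 1.51%.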

How the results depend on the processing

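No Dlx tile was called under any of the 35 alternatives, with 31 to 105 Dlx tiles tested, largest differences of 1.22 to 4.72 points, and 0 to 0 calls when each sample was left out (35 to 66 Dlx tiles). In the main setting 65 of the 66 Dlx tiles were under 10% in controls, where a decrease of 10 points is not possible, so the count of 0 says little. Calls over all tiles ranged from 0 (F test, limma) to 4818 (2.57%, at least 3 samples per condition). By share the highest was 3.39%, with the replicate block. When each sample was left out, calls ranged from 296 to 1816 (0.636% to 1.59%), lowest without Ctrl 4. Leaving out a control also cut the tiles tested, since 5 controls were required.

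The per-embryo differences passed p under 0.05 in 1 case, Dlx1 minus the level at unmethylated tiles (-0.451, exact permutation p = 0.0120). That level was taken over CpGs that differ between embryos. Directions changed as follows. Dlx4 went to -0.0133 (log2, limma) and to -0.0268 without EtOH-exposed 4, 5 and 6. Dlx5 went to 0.437 with 5 reads, 0.00517 with 20 reads and 0.323 without CpGs of CCGG sites, where Dlx1 had 0.00514. With a library covariate and without EtOH-exposed 4, 5 and 6, the named Dlx4 tile went to -0.122 and -0.0135 and the Dlx5 tile to -0.517 and -0.223. The cause was not tested. Leaving out each sample gave -0.620 to -0.0920 for Dlx1, -0.133 to 0.182 for Dlx2, -0.257 to 0.0731 for Dlx3, 0.0628 to 0.321 for Dlx4, -0.648 to -0.144 for Dlx5, 0.0802 to 0.800 for Dlx6, where Dlx2 changed sign in 9 cases and Dlx3 without Ctrl 2, and -0.562 to 0.0732 for the Dlx2 tile, which changed sign without Ctrl 2 alone.

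The replicate block paired equal numbers, so it held EtOH-exposed 1 to 6 only and left the other EtOH-exposed embryos out. Those kept include the libraries with the highest level at unmethylated tiles (2.40% to 2.53%). With the block no Dlx tile was called (0), beside 3.39% of all tiles. Dlx2 had 0.366 and Dlx3 0.252 (exact sign-flip p = 0.562 and 0.781). The named tiles of Dlx1, Dlx4 and Dlx5 grew to 1.24, 1.21 and 1.10 points (q = 4.12e-05, 6.98e-10 and 0.155, with reads as units). That of Dlx2 shrank to -0.226. Whether these shifts came from the pairing or from the embryos left out was not tested. The labels share only numbers, and deviations of the 6 pairs correlated by -0.15 to 0.17 over 37944 tiles, with 1 control closest to its own number.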
